A study of Mus musculus with 4 samples.

Results

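The cytosolic ribosomal protein genes were described across 4 bulk RNA-seq libraries of mouse cortical microglia. Members were the protein-coding rows of the deposited tables whose symbol starts with Rpl or Rps and a number, leaving out the S6 kinases (Rps6k) and the S19-binding protein (Rps19bp), and 88 of the 21981 listed genes met this rule. They comprised 30 small-subunit genes, 43 large-subunit genes, 6 paralogs or retrogenes (Rpl22l1, Rpl36al, Rpl39l, Rpl7l1, Rps27l and Rps27rt) and 9 rows whose symbol carries a pseudogene suffix although the tables class them as protein-coding. The symbol pattern does not take in the stalk proteins Rplp0, Rplp1 and Rplp2, the small-subunit protein Rpsa, or Fau, which encodes a ribosomal protein fused to a ubiquitin-like protein, and these are given separately.

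All libraries came from untreated cells labelled as microglia, from cerebral cortex at embryonic day 16. The control group was Bach1 fl/fl (libraries control 1 and control 6) and the other group was Bach1 cKO (libraries cKO 2 and cKO 5), a conditional loss of the transcription factor BACH1 that the series text names Bach1cKO-Cx3. Both groups therefore concern the floxed Bach1 allele, and Cx3 is the only name given for the driver. The series text speaks of triplicates, and 2 libraries a genotype were analysed here. The labels do not say whether a library is 1 embryo or a pool, nor that the replicates are separate animals, so the p-values measure only the spread between these libraries.

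The libraries held between 17233115 and 19305078 gene-assigned reads, so that 3 reads corresponded to 0.155 to 0.174 CPM (counts of a gene scaled to the library's total of gene-assigned reads). Values of the 4 libraries are listed throughout in the order control 1, control 6, cKO 2, cKO 5. Bach1 itself stood at 45.8, 21.6, 29.98 and 35.4 CPM, so its whole-gene level overlapped between the genotypes. These reads are summed over the gene and do not show which exons they came from. The 12 microglial markers, none of them at 0 reads in any library, summed to 25584, 40658, 9264 and 35938 CPM. The 10 markers of cortical excitatory neurons, also none at 0, summed to 1128, 350.1, 3925 and 319 CPM in the same order. Library cKO 2 thus carried the least microglial and the most neuronal marker RNA, and the members' summed share and median fold change are given below with and without it. In bulk RNA, fewer cells of a type and less RNA per cell cannot be told apart.

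Ribosomal proteins are the protein components of the small and large ribosomal subunits, and nearly all of them are present once in each ribosome. Their mRNAs typically begin with a terminal oligopyrimidine (TOP) tract, an uninterrupted run of C and U at the cap, through which the mTORC1 kinase controls their translation together. Mammalian genomes also hold many processed pseudogenes of these genes, copies of spliced mRNAs inserted elsewhere, which makes reads from them hard to place.

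The 30-base windows around the annotated start are shown for genes at both ends of the expression range, as a description of their pyrimidine runs. A run in a window need not lie at the cap. These 8 windows cannot show whether abundance and a TOP tract go together. They run from 20 bases before to 10 bases from the RefSeq start onward (GRCm38.p6), on the gene's own strand, and capitals mark the longest pyrimidine run of 6 or more bases. The genes are the 5 highest by CPM per kb of transcript, followed by the 3 of the 5 lowest that have an entry in the promoter table.
Rpl4, chr9:64173367-64173396, plus strand: agTCTTTCCTTTTCCTgtgggagcagccgg
Rps6, chr4:86857358-86857387, minus strand: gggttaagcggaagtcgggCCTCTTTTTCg
Rps2, chr17:24720043-24720072, plus strand: tgcgtaggcagtcgagatctcgcgCTTCTT
Rps9, chr7:3704021-3704050, plus strand: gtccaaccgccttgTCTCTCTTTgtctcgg
Rpl6, chr5:121204481-121204510, plus strand: gatcttggtcaCCTCCCgtcattgcttata
Rpl28, chr7:4792945-4792974, plus strand: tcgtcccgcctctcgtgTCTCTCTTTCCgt
Rpl35, chr2:39005122-39005151, minus strand: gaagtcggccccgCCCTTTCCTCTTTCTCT
Rpl24, chr16:55966255-55966284, plus strand: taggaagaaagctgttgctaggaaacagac
The longest run in these windows, 17 bases, belonged to Rpl35, one of the 5 members lowest by CPM per kb. Runs of 14, 10 and 9 bases stood in the windows of the abundant Rpl4, Rps6 and Rps9. Rps2 and Rpl6, also among the most abundant, had runs of 6 bases, and the window of Rpl24 had none of that length. The runs of Rpl35 and Rps2 reach the last base of the window, so their lengths are lower limits. Those of Rpl4 and Rpl6 lie wholly before the annotated start. In these 8 windows a long pyrimidine run was found at both ends of the expression range.

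The 71 RefSeq promoters (250 bases before to 50 after the start) that matched 60 of the members were searched for pyrimidine runs and short motifs. This is a description of their letters. A run of 8 or more pyrimidines on the sense strand within 25 bases of the start was present in 33 of the 71, or 46.5%, against 19.7% of all 32851 promoters in the table. The ETS-type core CCGGAAG, searched on both strands like the motifs that follow, was present in 35.2% against 8.86%. The YY1-type string AAGATGGC occurred in 11.3% against 2.75%, and the GC box GGGCGG in 59.2% against 35.7%. The TATA string TATAAA was in 8.45% of member promoters and 13.6% of all promoters. The core TGAGTCA, which BACH1 sites share with AP-1 sites, was in the promoters of Rpl22 and Rpl9 only, or 2.82% against 5.20% of all. These counts describe the letters in these windows and not binding.

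Levels differed far more between members than between libraries. Per kb of transcript, the mean level ran from 1135 CPM per kb for Rpl4, a large-subunit protein of the peptide exit tunnel, to 0.795 CPM per kb for Rpl24, a 1428-fold range over the 81 members with a matched transcript and a count in every library, with a median of 23.5 CPM per kb. The low end rests on 5, 12, 5 and 17 reads for Rpl24, so the size of the range is uncertain. It is a range of counts as assigned, and sequence shared with other genes is described below. Rps6, the small-subunit protein phosphorylated by S6 kinases downstream of mTORC1, followed Rpl4 at 767 CPM per kb. Rps2 and Rps9 came next at 628 and 613 CPM per kb, and Rpl6 at 538. At the other end, Rpl35, Rpl28 and Rpl23a lay between 1.26 and 1.42 CPM per kb, also with few reads. The 7 members with the highest CPM (Rpl4, Rps2, Rpl6, Rps6, Rps3, Rps3a1 and Rps9, of which Rps3a1 is named because it is in this count) held 60.7%, 60.1%, 57.1% and 62.6% of the member reads. The order of members was much the same in each library, with a Spearman correlation between libraries of 0.986 to 0.992 over 85 members, given as a description across genes.

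Rpl4 (chr9:64173375-64178666, plus strand) stood at 1778, 1590, 1376 and 2238 CPM. The cKO libraries were the lowest and the highest of the 4, on either side of both controls. The controls averaged 1684 ± 133 CPM (SD, n = 2) and the cKO libraries 1807 ± 609 (SD, n = 2), a log2 fold change of 0.07 ± 0.58 (SE, as for every log2 fold change given with an error). Rps6 (chr4:86854660-86857412, minus strand) showed the same order at 652.5, 635, 540 and 866 CPM. Rps3, which also takes part in DNA repair, did so too at 611, 583, 497 and 809 CPM.

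**Figure D1:**
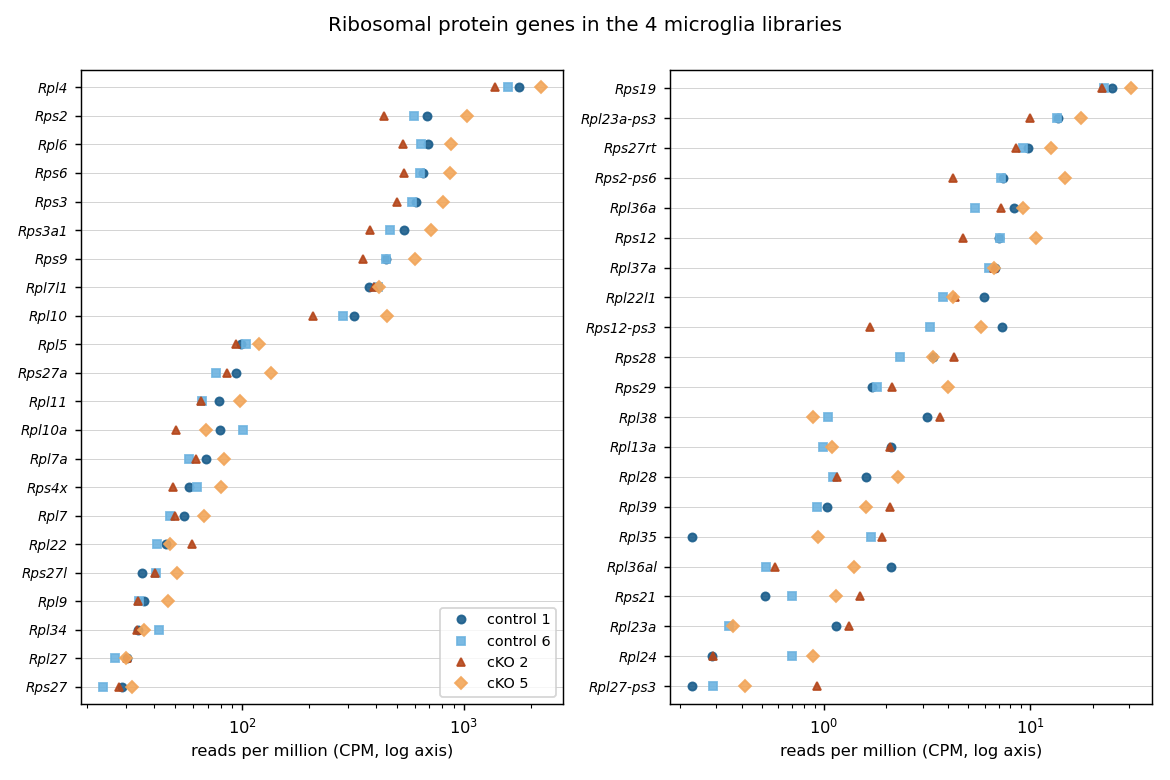
CPM on a log axis of ribosomal protein genes, 1 point for each of the 4 libraries, for the 43 members named in the text that have a count in every library (the legend names the colours and shapes). For Rpl4 and Rps6 the cKO libraries lie on either side of both controls, whereas for Rpl10a both cKO points lie below both control points.

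Much of the members' sequence is not their own. For each gene the share of 50-base stretches of its transcript that occur in no other annotated gene was counted in the GENCODE M21 transcripts. The median was 50.7% for 81 tested members and 100% for 13472 other tested protein-coding genes, and 39 members (48.1%) had under 50% against 2.61% of the other genes. With 100-base stretches the median was 65.2%. Over the 83 members with a transcript, the median number of annotated pseudogenes sharing a 50-base stretch was 8, and it reached 119 for Rpl7a. The sources used here do not give how the authors' counting treated reads that fit several places, so levels of members with little sequence of their own are uncertain.

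**Figure D2:**
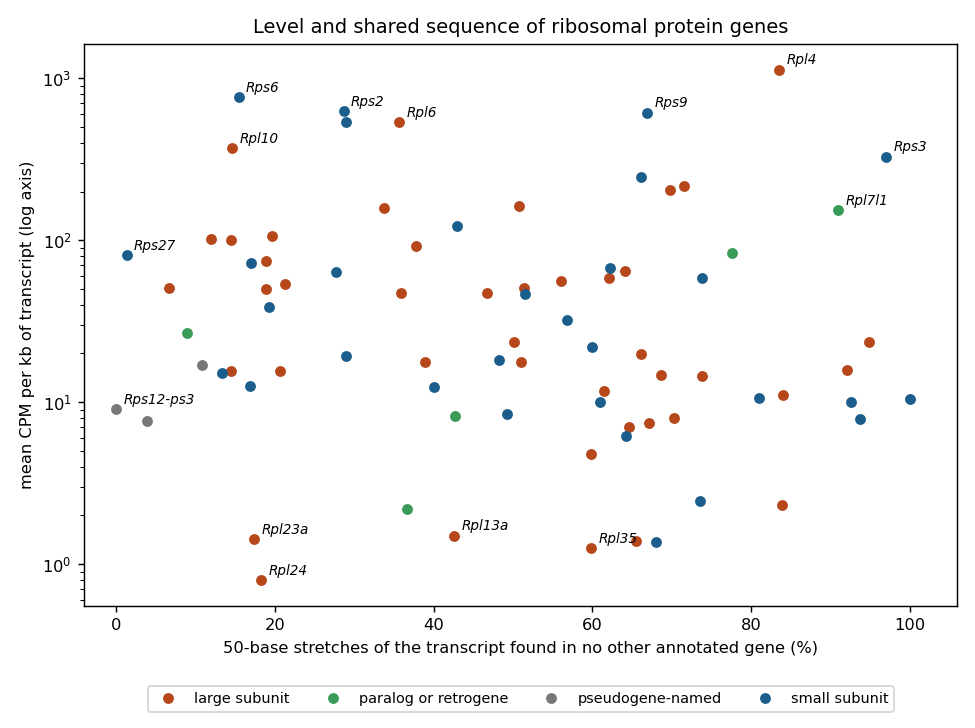
Mean CPM per kb (log axis) of each member against the percent of its transcript's 50-base stretches found in no other annotated gene, coloured by class. Rpl4 is high at 83.5% own sequence and Rps6 is high at 15.4%, and members of low level occur across the axis.

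Level and own sequence were only weakly related across members, with a Spearman correlation of -0.14 over 81 members, all measured in the same 4 libraries. Rpl4 had 83.5% of its 50-base stretches to itself, Rps9 67.0% and Rps6 15.4%, so that members of high level had both large and small shares. Among the low members, Rpl35 had 59.9% and Rpl24 18.3%. The median log2 fold change was 0.10 for the 42 members with at least 50% own sequence and 0.13 for the 39 members below it.

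Sets of near-identical genes show what the counting could and could not separate. The first 60 coding bases are given below for Rps27, its intronless copy Rps27rt, and the p53-responsive paralog Rps27l, in the GENCODE M21 transcripts (GRCm38), with capitals where a base differs from Rps27. Those of Rps27 and Rps27l span an intron.
Rps27, chr3:90213248-90213615, minus strand: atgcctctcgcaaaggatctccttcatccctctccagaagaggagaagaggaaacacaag
Rps27rt, chr9:114982648-114982707, minus strand: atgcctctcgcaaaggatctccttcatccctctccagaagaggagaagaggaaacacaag
Rps27l, chr9:66946175-66946884, plus strand: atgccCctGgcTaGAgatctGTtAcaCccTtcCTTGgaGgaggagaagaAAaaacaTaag
Rps27rt had 0 differences from Rps27 over all 252 coding bases, and Rps27l had 60, an identity of 76.2%. Rps27 had 1.35% own 50-base stretches, Rps27rt 8.92% and Rps27l 77.6%.

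Rps27 stood at 28.7, 23.5, 27.9 and 31.8 CPM, and Rps27rt at 9.73, 9.17, 8.49 and 12.5 CPM. Reads in these rows cannot be told apart over their coding sequence. Rps27l, which can, stood at 35.2, 40.8, 40.7 and 50.7 CPM, between 1.23 and 1.74 times Rps27 in every library, and its log2 fold change was 0.21 ± 0.38. Rps12 and the row named Rps12-ps3 are shown in the same way because the latter was among the members that varied most.
Rps12, chr10:23786835-23787007, minus strand: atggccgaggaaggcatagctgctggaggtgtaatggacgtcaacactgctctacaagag
Rps12-ps3, chr19:59322371-59322430, plus strand: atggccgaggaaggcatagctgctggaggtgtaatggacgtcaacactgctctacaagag
They had 0 differences over 396 coding bases, and Rps12-ps3 had 0% own stretches of 50 bases, yet 127, 56, 29 and 111 reads were assigned to it. Its log2 fold change was -0.46 ± 0.96 and that of Rps12 was 0.11, both of them uncertain as separate values.

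The summed share of reads in the 88 members was 0.889%, 0.824%, 0.721% and 1.14%. The cKO libraries were the lowest and the highest. The share averaged 0.856% ± 0.0459 (SD, n = 2) in controls and 0.930% ± 0.296 (SD, n = 2) in cKO, a difference of 0.0734 percentage points (exact two-sided permutation test, p = 1.0, where 2 against 2 libraries cannot go below 0.333). Without cKO 5 the difference was -0.136 percentage points and without cKO 2 it was 0.283, so its direction rests on which cKO library is counted. Small-subunit genes summed to 3713, 3442, 2936 and 4995 CPM. Large-subunit genes summed to 4698, 4286, 3791 and 5846 CPM in that order, so that the ratio of large to small was 1.27, 1.25, 1.29 and 1.17.

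**Figure D3:**
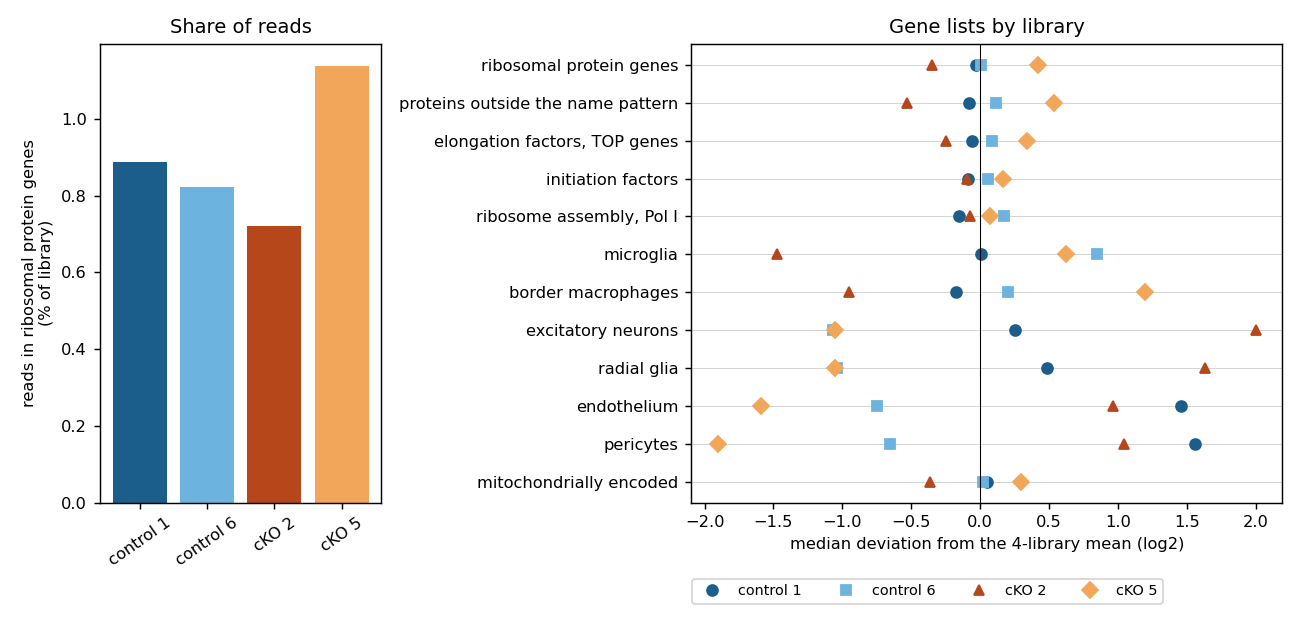
Percent of reads in the ribosomal protein genes in each library, and the median log2 deviation from the mean of the 4 libraries for these genes and the related and marker lists. The share is lowest in cKO 2 at 0.721% and highest in cKO 5 at 1.14%, with both controls between.

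No ribosomal protein gene passed the test between genotypes. In edgeR's quasi-likelihood test with Benjamini-Hochberg adjustment over all genes, 0 of the 84 members tested were called, against 0% of the 15951 genes tested, and the smallest adjusted p of any gene was 0.9997. Without adjustment, 0 members and 49 genes in all (0.307%) had a p under 0.05. DESeq2 and limma-voom also called 0 genes after adjustment, with 74 and 37 genes and 0 members at an unadjusted p under 0.05. The 4 members not tested were Rpl27-ps3, Rpl39l, Rpl7a-ps3 and Rpl9-ps1, which had few reads or no count listed in a library.

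The members' log2 fold changes were small and mostly positive. Their median was 0.10 against 0.03 for all genes tested, with 68 positive and 16 negative (81.0% positive against 52.8% of all genes). They ran from -0.65 to 1.01, and 4 members (Rpl10a, Rpl39, Rps21 and Rps29), or 4.76%, reached a size of 0.5 against 31.1% of all genes. Small-subunit genes had a median of 0.13 with 28 of 30 positive, and tested large-subunit genes 0.09 with 34 positive. In limma-voom the members' median was 0.03 with 51 positive, against -0.03 for all genes. The median rests on single libraries: it was 0.49 without cKO 2, with 79 members positive, and -0.39 without cKO 5, with 16 positive. Without control 1 it was 0.07, under the 0.09 of all genes. With scaling factors set on the microglial markers, the medians were 0.98 for the members and 1.15 for all genes, so the members lay below all genes there too.

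**Figure D4:**
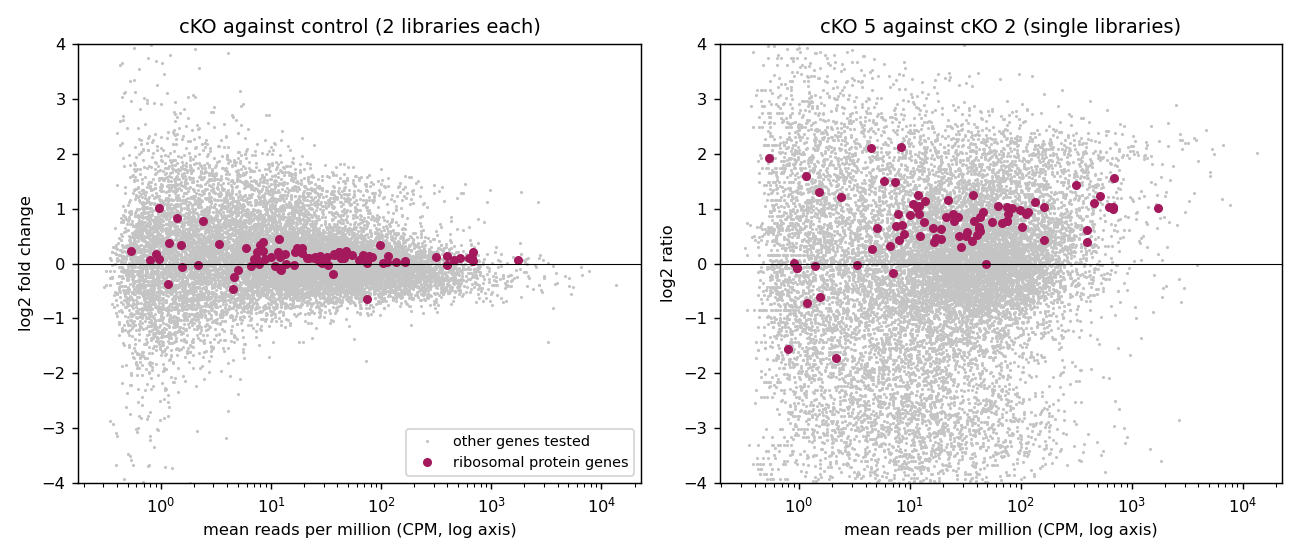
Log2 fold change of each gene against its mean level, cKO against control in one panel and cKO 5 against cKO 2 in the other, with ribosomal protein genes marked over all genes tested (axes end at 4 on either side, 35 and 466 genes lie outside, and 632 genes with 0 reads in a cKO library are not in the second panel). The members centre on 0.10 between genotypes and on 0.78 between the cKO libraries, where all genes centre on -0.04.

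The larger difference lay within the cKO group. On normalised CPM (TMM, edgeR's trimmed-mean scaling), 74 of 84 members were higher in cKO 5 than in cKO 2, with a median log2 ratio of 0.78 against -0.04 for all genes. At 1.5-fold or more, 57 members (67.9%) were higher, against 30.1% of all genes, and 4 members (4.76%) were lower, against 33.4%. Between the controls the members' median log2 ratio of control 6 over control 1 was 0.06, with 6 members 1.5-fold or more higher (background 17.4%) and 6 lower (background 26.6%). These are comparisons of single libraries and have no replicate check.

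The order of libraries was most uniform among abundant members. Of the 16 tested members at 100 CPM or more, all 16 had their highest CPM in cKO 5 (23.7% of all genes of that level) and 13 also had their lowest in cKO 2, an order seen in 19.3% of all genes of that level. Their median log2 ratio of cKO 5 over cKO 2 was 1.02, against 0.33 for all genes of that level. Ratios of cKO 5 over cKO 2 are on normalised CPM throughout, whereas the highest and lowest libraries here are on CPM. At 10 to 100 CPM, 36 of 41 members were highest in cKO 5 (19.97% of all genes of that level) and 20 showed the full order (12.7%), with a median log2 ratio of 0.77 against -0.05. Under 10 CPM, 12 of 27 were highest in cKO 5 (19.01%) and 5 showed the full order (9.51%), with a median log2 ratio of 0.54 against -0.26. The 4 members that were 1.5-fold or more lower in cKO 5 were Rpl13a, Rpl23a, Rpl35 and Rpl38, all with few reads.

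Rpl38, a large-subunit protein needed for translation of a subset of Hox mRNAs, went the opposite way from the abundant members, with 55, 18, 63 and 17 reads. It was high in control 1 and cKO 2 and low in the other libraries, at 3.15, 1.04, 3.64 and 0.881 CPM. Rpl13a, a component of the interferon-dependent GAIT complex, had the same order of high and low libraries at 37, 17, 36 and 21 reads, and so did Rpl23a at 20, 6, 23 and 7. Marker sums of endothelium (5407, 1195, 3954 and 799 CPM), pericytes (3897, 759, 3499 and 284), excitatory neurons (given above), radial glia (503, 179.7, 960.2 and 163) and erythroid cells (308, 111, 220.2 and 113) showed that split too, with control 1 and cKO 2 above the other libraries. Whether any of these cells had a part in the values of Rpl38 was not tested. Rpl35 had 4 reads in control 1 and 29 in control 6, with 95% Poisson intervals of 0.0624 to 0.586 and 1.13 to 2.42 CPM that cover counting error only.

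Marker lists of several cell types also differed between the libraries. The members' median log2 deviation from the mean of the 4 libraries was -0.03, 0.01, -0.35 and 0.42. For the 12 microglial markers it was 0.01, 0.85, -1.47 and 0.62, and for the 7 markers of border-associated macrophages it was -0.18, 0.20, -0.95 and 1.19, with Cd163 at 0 reads in a library. For the excitatory neuron markers it was 0.26, -1.07, 2.00 and -1.05. The part of these cell types, and of the libraries' makeup, in the order of the ribosomal protein genes was not tested.

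The genotypes did not overlap on normalised CPM for 5 members. Both cKO libraries were above both controls for Rpl22, Rpl39, Rps21 and Rps28 (4.76% of members, background 8.33%), and both were below for Rpl10a (1.19%, background 7.64%). Both shares were under the background. Rps28 was named after its values were seen, at 3.38, 2.32, 4.27 and 3.37 CPM. In CPM its cKO 5 value lay just under control 1, so its separation was seen only after normalisation.

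Rpl10a (chr17:28328471-28331032, plus strand), a large-subunit protein, stood at 79.2, 100.5, 50.5 and 68.9 CPM. The controls averaged 89.9 ± 15.1 CPM (SD, n = 2) and the cKO libraries 59.7 ± 13.01 (SD, n = 2). Its log2 fold change of -0.65 ± 0.42 did not pass the edgeR test (adjusted p = 0.9997), and 11.9% of its 50-base stretches were its own. It ran from -1.09 to -0.28 when 1 library was left out, and under factors set on the microglial markers it was 0.32. Rps21 (chr2:180257377-180258445, plus strand), a small-subunit protein, had 9, 12, 26 and 22 reads, and a log2 fold change of 1.01 ± 0.91. Rpl39 (chrX:37082520-37085402, minus strand), which lines the peptide exit tunnel, had 18, 16, 36 and 31 reads and a log2 fold change of 0.82 ± 0.82. For both, the cKO libraries were the higher pair at very low depth, and the log2 fold change stayed between 0.73 and 1.34 for Rps21 and between 0.80 and 0.84 for Rpl39 when 1 library was left out.

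Rps29, a small-subunit protein, stood at 1.72, 1.80, 2.14 and 3.99 CPM, with cKO 5 apart from the rest, and its log2 fold change of 0.77 ± 0.82 became 0.03 without cKO 5. Rps27a, which is made as a fusion with ubiquitin, stood at 93.5, 76.6, 85.6 and 135 CPM, and its log2 fold change of 0.35 ± 0.43 became -0.23 without cKO 5. Rpl34 was highest in control 6, at 33.8, 42.0, 33.7 and 36.1 CPM, and its log2 fold change was -0.19 ± 0.37.

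The 6 paralogs and retrogenes summed to 427, 466, 447 and 484 CPM, most of it from Rpl7l1, and to 53.2, 54.3, 54.1 and 69.2 CPM without it. Their log2 range over the libraries after normalisation differed from gene to gene, from 0.40 for Rpl7l1 to 1.35 for Rpl36al among the 5 tested. Rpl22 (chr4:152325742-152334071, plus strand), an RNA-binding large-subunit protein with 94.8% own sequence, stood at 45.2, 41.2, 59.6 and 47.3 CPM. It was highest in cKO 2, and its log2 range of 0.25 over the libraries after normalisation was the smallest of the tested members. The controls averaged 43.2 ± 2.80 CPM (SD, n = 2) and the cKO libraries 53.5 ± 8.71 (SD, n = 2), a log2 fold change of 0.22 ± 0.29 that kept its sign without any 1 library (0.19 to 0.24). Its paralog Rpl22l1, which RPL22 represses in other tissues, stood at 5.95, 3.77, 4.33 and 4.20 CPM, highest in control 1, and its log2 fold change of -0.24 ± 0.61 became 0.01 without control 1. In CPM, not per length, Rpl22l1 was 0.132, 0.0915, 0.0727 and 0.0887 times Rpl22.

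Rpl7l1, a nucleolar relative of Rpl7 that acts in large-subunit assembly, was the most abundant paralog at 374, 412, 393 and 415 CPM, while Rpl7 stood at 54.8, 47.2, 49.9 and 67.4 CPM. Rpl7 was highest in cKO 5, and Rpl7l1 was near level across the libraries with a log2 fold change of -0.03 ± 0.38. Rpl36al stood at 2.12, 0.522, 0.578 and 1.40 CPM and its partner Rpl36a at 8.36, 5.40, 7.16 and 9.22 CPM. Rpl39l, a paralog best known from testis, had 3 reads in control 1, 8 in cKO 5 and 0 in control 6, which allows up to 0.174 CPM there, and its row was not listed with a count for cKO 2.

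The 9 rows with a pseudogene suffix summed to 47.4, 42.8, 31.4 and 62.6 CPM, lowest in cKO 2 and highest in cKO 5 like the subunit genes. The widest range after normalisation among tested members, 1.99 on the log2 scale, belonged to Rps2-ps6, at 7.38, 7.20, 4.22 and 14.8 CPM beside its parent Rps2 at 682, 594, 438 and 1034 CPM. Both had the same order of libraries. Rpl23a-ps3 stood at 13.6, 13.4, 9.94 and 17.6 CPM, above its parent Rpl23a, which was at 1.14, 0.348, 1.33 and 0.363 CPM and had the opposite order within the cKO group.

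The 4 X-linked members were Rpl10, Rpl36a, Rpl39 and Rps4x. The Y-linked initiation factor gene Eif2s3y, named with its values known, had 0, 1308, 1464 and 0 reads, so the libraries of each genotype differed in its reads. As a library may be a pool, the reads in control 6 and cKO 2 do not give the sex of every embryo in them. The comparison of cKO 5 with cKO 2 also set a library with 0 reads of this gene against one with 1464. The part of sex in the values of any member was not tested. Rpl10, which sits near the peptidyl transferase centre, stood at 320.1, 285, 209.9 and 452 CPM with a log2 fold change of 0.12 ± 0.57. Rps4x stood at 57.8, 62.7, 48.9 and 80.7 CPM. Both were lowest in cKO 2 and highest in cKO 5, unlike Rpl39. After Rpl22, the members with the smallest ranges were Rpl37a, at 6.70, 6.33, 6.64 and 6.63 CPM, and Rpl27, at 30.2, 26.7, 30.15 and 29.9 CPM.

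Members with known roles outside peptide synthesis did not pass the test between genotypes. Rpl5 and Rpl11, which with 5S rRNA bind and inhibit MDM2 when ribosome assembly fails, stood at 98.7, 104, 93.8 and 119 CPM and at 78.5, 66.1, 65.5 and 98.01 CPM. Their log2 fold changes were 0.02 ± 0.37 and 0.14 ± 0.41. Rps19, the gene most often mutated in Diamond-Blackfan anaemia, stood at 24.7, 22.7, 22.3 and 30.5 CPM with a log2 fold change of 0.11 ± 0.42. For all 3 genes the order was again lowest in cKO 2 and highest in cKO 5.

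The 6 canonical ribosomal proteins outside the symbol pattern had 5 positive and 1 negative log2 fold changes, with 0 called and a median of 0.10. Rplp0, the stalk base, stood at 1241, 1108, 804 and 1475 CPM. Rpsa stood at 126, 111, 100.1 and 169 CPM. Both were lowest in cKO 2 and highest in cKO 5, as was Rplp1, a stalk protein, at 58.0, 52.5, 47.1 and 74.5 CPM, and Fau, at 37.1, 40.8, 31.2 and 54.4 CPM.

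The list of elongation factors, other TOP genes and the kinase Eef2k had 12 tested genes, 6 positive and 6 negative. Their median was 0.03, with 0 called at the adjusted or unadjusted threshold. Their summed CPM, 9394, 8444, 7090.4 and 11006, was lowest in cKO 2 and highest in cKO 5. Most of it came from Eef1a1, at 7053, 6234, 4599 and 8377 CPM. Eef1a1 delivers aminoacyl-tRNA to the ribosome and is named here with its values known. Without Eef1a1 the sum was 2341, 2210, 2491 and 2629 CPM, lowest in control 6 and still highest in cKO 5. The median log2 deviation of the list was -0.06, 0.09, -0.25 and 0.34, again lowest in cKO 2 and highest in cKO 5. Eef2k, the kinase that inhibits elongation factor 2, was lowest in cKO 5 at 87.2, 69.4, 71.2 and 45.1 CPM, with a log2 fold change of -0.53 ± 0.31. Hnrnpa1, an RNA-binding protein with a TOP mRNA, stood at 399, 291, 696 and 310.4 CPM, highest in cKO 2.

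The 32 initiation factors (22 positive, 10 negative, 0 called, median 0.06) had median log2 deviations of -0.09, 0.05, -0.10 and 0.16. Their deviation was highest in cKO 5, while control 1 and cKO 2 were near level and lowest. Their summed CPM, on which the abundant genes weigh most, had another order at 8765, 9264, 10629 and 8961. The 43 tested assembly and RNA polymerase I genes (23 positive, 20 negative, 0 called, median 0.01) summed to 3402, 3651, 3888 and 3713 CPM, with median log2 deviations of -0.15, 0.17, -0.07 and 0.07. Nop58, a core protein of box C/D snoRNPs, stood at 121, 128, 187 and 147 CPM with a log2 fold change of 0.33 ± 0.30. The 17 tested mTORC1 and Myc genes (7 positive, 10 negative, 0 called, median -0.08) included Rptor, the mTORC1 scaffold, at 129, 119, 46.0 and 109 CPM, low in cKO 2, and Mycl, a Myc family transcription factor, at 36.9, 23.2, 94.7 and 17.9 CPM, high in cKO 2.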

How the data were processed

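Gene counts and CPM of 4 libraries were used as deposited. Reads were processed with Bowtie2 2.2.3, TopHat2 2.0.12 and HTSeq 0.6.0, per the submitters' processing notes, which name mm9, while 90.3% of 21922 matched genes have positions identical to GENCODE M21 (GRCm38), and GRCm38 is the build of every position printed. The authors' deposited counts are whole reads per gene, and the authors' deposited CPM values equal count over library total, with a count of 0 entered as 0.5 reads. The sources used here do not give strand, read length or multi-mapping settings.

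Counts were tested with edgeR 4.0.16 (R 4.3.3, TMM, filterByExpr minimum count 10, quasi-likelihood test, 2 residual degrees of freedom, Benjamini-Hochberg at 0.05 over 15951 genes), and the code was tested on simulated data. A single share was tested by exact permutation. Alternatives were DESeq2 1.42.0, limma-voom (limma 3.58.1), other scaling, no filter and leaving out each library. Library totals ran from 17233115 to 19305078 reads. Members and lists were chosen with earlier results of these data known. Named genes were the paralogs and their partners, 7 members of known role, the 5 smallest unadjusted p on each side, the 5 highest and 5 lowest per kb, the 3 largest and 3 smallest ranges, and 2 genes of each related list. Values of some single genes are not reported here.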

Additional observations from a re-analysis of the deposited data

How the results depend on the processing

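The count of genes called was 0 under every alternative run, for all genes and for the members. The members' median log2 fold change of 0.10 ran from -0.39 to 0.49 when 1 library was left out, and was 0.98 under factors set on the microglial markers, where the median of all genes was 1.15. The difference in the share of reads ran from -0.136 to 0.283 percentage points when 1 library was left out. Under the microglial factors the log2 fold change turned to 0.70 for Eef2k, 0.32 for Rpl10a, 0.74 for Rpl22l1, 0.89 for Rpl34 and 0.017 for Rpl36al. Leaving out 1 library turned the sign for Hnrnpa1 (-0.030 to 0.78), Mycl (-0.62 to 1.43), Rpl22l1 (-0.47 to 0.012), Rpl34 (-0.43 to 0.068), Rpl36al (-1.38 to 0.83), Rplp1 (-0.48 to 0.54), Rps12-ps3 (-1.86 to 0.27), Rps27a (-0.23 to 0.78) and Rpsa (-0.49 to 0.63). The cause was not tested. Where a genotype kept 1 library, that library was assumed to vary like the other group. No paired analysis was possible because the genotypes share no replicate numbers. In limma-voom the members' median was 0.03 with 51 of 84 positive, and without control 1 it was 0.07 against 0.09 for all genes. Each genotype had 2 libraries, and 9 members had under 10 reads in a library.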
